A study of Mus musculus with 2 samples.

Results

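The 8 genes Hoxb2 to Hoxb9 of the mouse Hoxb cluster were followed across the stromal cells of the colon and small intestine. They are 8 of 18545 genes listed for either tissue, and the rule that defines them is their name and place in the cluster. The study sequenced single stromal cells of healthy, untreated mouse colon and small intestine with a droplet 3' kit, 1 library per tissue, after sorting live cells that lacked Epcam and CD45. Strain, age and number of animals were not given in the labels, which also say about 16000 cells were loaded per library. The colon was digested for 60 minutes against 45 minutes for the small intestine, so tissue, library and digestion cannot be told apart. The authors' cell labels were used: CD81- fibroblasts (CD81- FBs), CD81+ trophocytes, PDGFRa-hi SEMFs (fibroblasts beneath the epithelium), lymphatic endothelial cells (LECs), blood endothelial cells (BECs) and smooth muscle cells (SMCs). Values are CPM, the count scaled to 1000000 of all unique molecular identifiers (UMIs, 1 per captured RNA molecule), summed over the cells of a label. Brackets give exact 95% intervals that cover counting error only. With 1 library per tissue no test was possible.

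Hox genes encode homeodomain transcription factors that give cells a position along the head-to-tail axis of the embryo. Their order along the chromosome matches the order of their domains: genes near Hoxb1 are active furthest forward and Hoxb9 furthest back. Hox proteins bind DNA together with TALE cofactors such as Meis proteins, retinoic acid induces the front genes early, and Polycomb complexes keep silent Hox genes off. Adult fibroblasts and vessels often retain a Hox pattern of their region. Trophocytes are fibroblasts beneath the crypt base that supply factors such as Gremlin 1 to intestinal stem cells.

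In the gene annotation (GENCODE vM21, GRCm38, the sequence of mm10) all 8 members lie on the plus strand of chromosome 11, within 82.6 kb, from Hoxb9 (chr11:96271457-96276595) to Hoxb2 (chr11:96350525-96354012). No member overlaps another, but 4 overlap genes of the opposite strand: Hoxb5 and Hoxb6 lie under Hoxb5os, Hoxb3 under Hoxb3os and Gm11536, and Hoxb2 under Hoxb3os. Promoter sequences from RefSeq (GRCm38.p6, 250 bases before to 50 after the start) were at hand for 2 of the 8 members and are shown because the profiles of these members differed. Hoxb8 (chr11:96281655-96281954, plus strand) was highest in endothelium, and Hoxb4 (chr11:96318017-96318316, plus strand) carried the largest share of the residual signal in colon CD81- FBs. Capitals mark matches, on either strand, to the CDX-type motif TTTATG or the NF-Y motif CCAAT, which do not overlap each other here.

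Hoxb8: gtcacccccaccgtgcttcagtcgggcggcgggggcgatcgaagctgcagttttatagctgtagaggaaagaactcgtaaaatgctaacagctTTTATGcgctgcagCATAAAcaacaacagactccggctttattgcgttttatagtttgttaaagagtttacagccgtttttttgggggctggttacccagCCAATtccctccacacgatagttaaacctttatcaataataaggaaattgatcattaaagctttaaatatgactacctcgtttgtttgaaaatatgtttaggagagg
Hoxb4: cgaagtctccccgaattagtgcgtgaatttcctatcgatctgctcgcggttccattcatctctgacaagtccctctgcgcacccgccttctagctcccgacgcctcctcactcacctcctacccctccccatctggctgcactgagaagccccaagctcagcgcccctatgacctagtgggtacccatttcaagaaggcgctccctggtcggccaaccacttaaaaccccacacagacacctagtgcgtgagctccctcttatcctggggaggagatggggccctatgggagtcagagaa

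The Hoxb8 window held 2 matches to TTTATG, a motif found in 11.9% of the 32851 promoter windows of the table, and 1 match to CCAAT, found in 37.4%. The Hoxb4 window held neither. Neither window held the HOX cofactor motif TGATTNAT, present in 3.22% of windows. The Hoxb4 window was richer in G and C (58.0%) than that of Hoxb8 (42.3%), with the median window at 52.7%. These matches describe letters, not bound sites.

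The colon library held 6018 cells and 40684070 UMIs (median 6598 per cell), and the small intestine 9359 cells and 58134526 UMIs (median 5943). Only 21 cell barcodes occurred in both. For trophocytes, 5 of 7 markers peaked in their own label in each library, and for SMCs 6 of 6. For CD81- FBs 5 of 5 did so in the colon but 2 of 5 in the small intestine. There Adamdec1, a marker of CD81- FBs, reached 9211 CPM in the SMC label against 8191 in the CD81- FBs themselves. Epithelial markers summed to at most 10.5 CPM in any label. Pericytes (8 cells) and proliferating cells were too few to compare, and the 53 colon BECs joined 3 vessel labels (45 CapECs, 4 ArtECs and 4 VenECs).

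Every label of the small intestine expressed the cluster, at 127 to 224 CPM, whereas in the colon it was divided between labels. Summed over the 8 members, small intestinal levels were 158 CPM (153 to 164) in CD81- FBs, 141 (136 to 148) in trophocytes, 127 (118 to 136) in SEMFs, 142 (135 to 149) in LECs, 172 (157 to 188) in SMCs and 224 (205 to 245) in BECs. In the colon, trophocytes held 89.8 CPM (82.6 to 97.5), LECs 85.4 (68.8 to 105) and BECs 156 (112 to 211). Colon CD81- FBs, the most numerous label, held 4.78 CPM (3.95 to 5.72), and SEMFs 2.15 (1.23 to 3.49). The 125 colon SMCs held no UMI of any member among 772279 (interval 0 to 4.78 CPM). Colon trophocytes and LECs did not differ beyond their intervals, nor did SEMFs and SMCs; every other pair of neighbours in the colon order did. Small intestinal BECs stood above all others, SMCs and CD81- FBs overlapped next, and LECs, trophocytes and SEMFs overlapped below them.

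**Figure D1:**
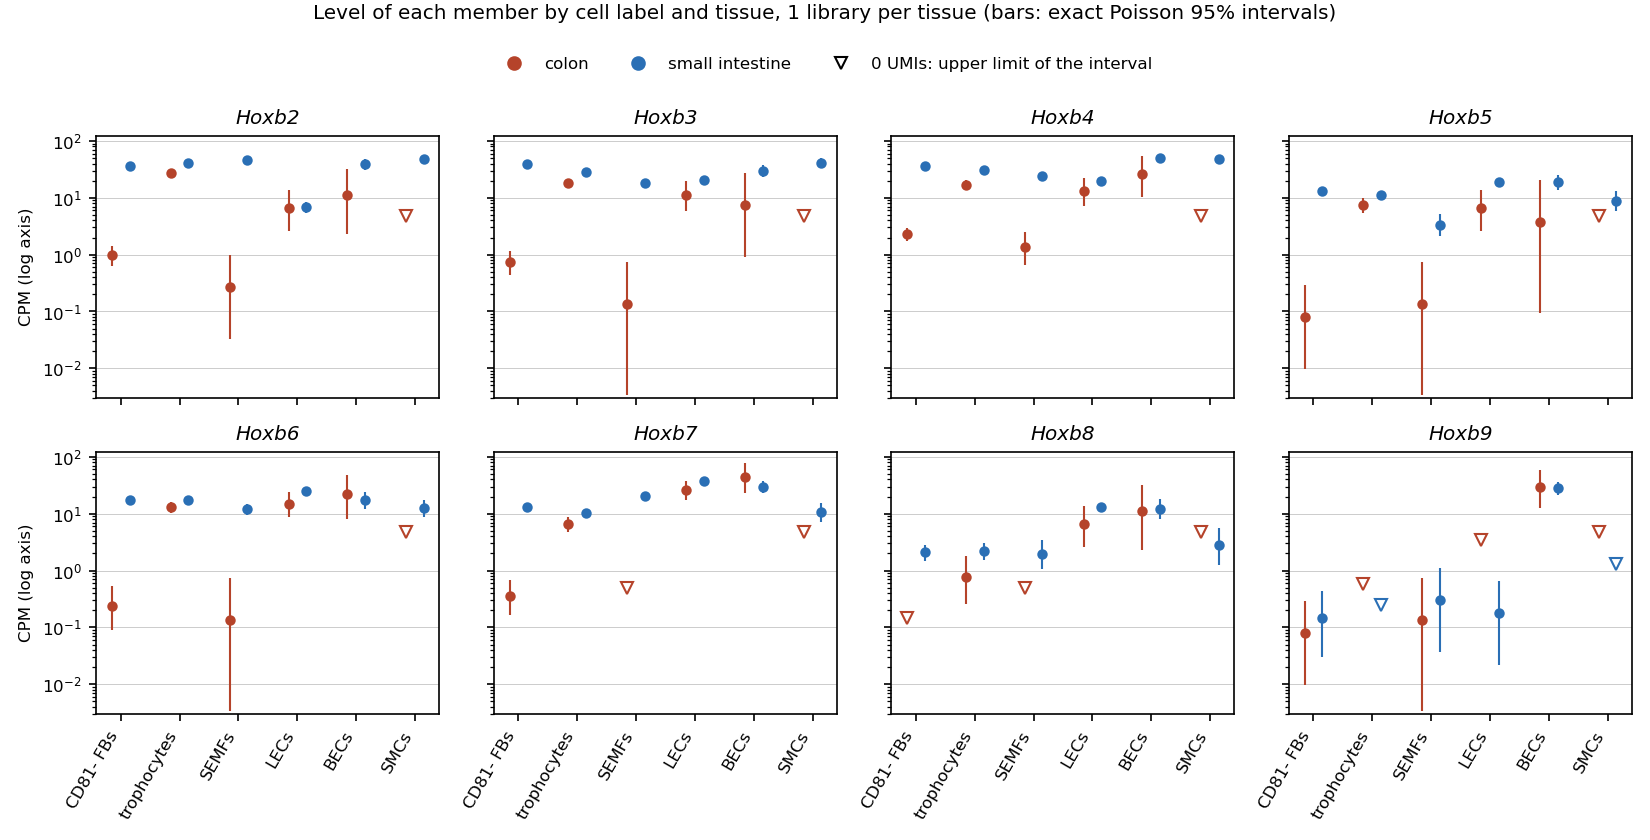
Level of each member in CPM (log axis) in the 6 labels of the colon (red) and small intestine (blue), with exact Poisson 95% intervals; open triangles mark 0 UMIs at the upper limit of the interval. Colon CD81- FBs and SEMFs lie far below the small intestine for Hoxb2 to Hoxb7, while trophocytes lie near it. For these members the log2 ratios of LECs range from -1.51 (Hoxb5) to -0.05 (Hoxb2). Those of BECs range from -2.33 (Hoxb5, 1 colon UMI) to 0.59 (Hoxb7).

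The size of the tissue difference therefore depended on the label. The summed level was 33.1-fold lower in colon than in small intestinal CD81- FBs (log2 ratio -5.05, -5.33 to -4.78) and 59.0-fold lower in SEMFs (-5.88, -6.70 to -5.17). In SMCs, with the 0 UMIs of the colon set to 3, it was 44.3-fold lower, which is not an interval limit. The small intestinal side of that ratio is the SMC label with Adamdec1 at the level of CD81- FBs, and whether it holds RNA of other cells was not tested. Trophocytes differed by 1.57-fold (-0.66, -0.79 to -0.52), LECs by 1.66-fold (-0.73, -1.05 to -0.42) and BECs by 1.44-fold (-0.53, -1.02 to -0.07), in each case with the colon lower. The BEC interval spanned 0 without the 6% of cells with the most UMIs (-0.24, -0.73 to 0.22) and without Hoxb2 (-0.36, -0.87 to 0.12). The LEC interval spanned 0 with only colon cells holding Y-linked and no Xist UMIs (-0.49, -1.12 to 0.07). Pooling the 3 fibroblast labels gave 18.3 against 147 CPM, a log2 ratio of -3.01 (-3.12 to -2.89), which blends a small difference in trophocytes with large ones in the others. Leaving out the 6% of cells with the most UMIs lowered the SEMF ratio to -7.10. Immediate early and stress genes, which respond to dissociation, also differed by label: their median log2 ratio was 1.82 in SEMFs, 0.31 in CD81- FBs, -0.03 in trophocytes and -1.14 in LECs. Their part in these differences was not tested. Fewer cells expressing a gene and fewer molecules per cell cannot be told apart in a summed level.

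Within the colon, trophocytes exceeded CD81- FBs by 4.23 on the log2 scale (3.95 to 4.53), and in the small intestine they lay slightly below them (-0.16, -0.24 to -0.08). The colon contrast held for 6 members with intervals above 0, from 2.85 (2.37 to 3.34) for Hoxb4 to 6.51 (4.58 to 9.60) for Hoxb5. Hoxb8, with 5 UMIs against 0, was 2.69 higher with the 0 set to 3 counts, which is not an interval limit. Hoxb9 had too few UMIs for a ratio.

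The front genes Hoxb2, Hoxb3 and Hoxb4, which act furthest forward in the embryo, made up most of the fibroblast signal. Hoxb2 reached 27.5 CPM (23.6 to 31.9; 175 UMIs) in colon trophocytes, against 0.971 (0.622 to 1.45) in CD81- FBs and 2 UMIs in SEMFs. It was lower in colon LECs (6.57 CPM, 2.64 to 13.5) and had 3 UMIs in BECs. Small intestinal levels were 47.8 CPM in SMCs, 46.8 in SEMFs, 41.1 in trophocytes, 38.8 in BECs and 36.6 in CD81- FBs. The intervals of neighbours in this order overlapped, and LECs stood alone below them at 6.78 (5.34 to 8.49). The LEC levels of the 2 tissues gave a log2 ratio of -0.05 (-1.41 to 1.07), and colon LECs stood above CD81- FBs and SEMFs.

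Hoxb3 was also highest in trophocytes among colon labels, with less contrast to LECs. Colon levels were 17.9 CPM (14.8 to 21.5) in trophocytes, 11.3 (5.82 to 19.7) in LECs, 0.729 (0.432 to 1.15) in CD81- FBs, with 2 UMIs in BECs and 1 in SEMFs. Small intestinal levels ran from 18.1 CPM in SEMFs and 20.8 in LECs, whose intervals overlapped, through 28.1 in trophocytes and 30.1 in BECs to 38.8 in CD81- FBs and 41.0 in SMCs, whose intervals overlapped too. Its tissue log2 ratio was -0.65 (-0.96 to -0.35) in trophocytes and -5.73 (-6.50 to -5.06) in CD81- FBs.

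Of the members with a ratio and an interval, Hoxb4 was the least reduced in colon CD81- FBs. It held 57 of the 118 Hoxb UMIs there, 48.3% (39.0 to 57.7), against 18.5% (15.4 to 22.0) in colon trophocytes and 23.3% (21.8 to 24.8) in small intestinal CD81- FBs. The level was 2.31 CPM (1.75 to 2.99), above Hoxb2 and Hoxb3 in the same cells, and the tissue ratio -4.00 (-4.41 to -3.61) lay above those of Hoxb2 (-5.24) and Hoxb3 (-5.73) with no overlap of intervals, though that of Hoxb7 (-5.17, -6.32 to -4.23) overlapped it. Hoxb8, with 0 UMIs against 42, gave -4.10 with the 0 set to 3 counts, within the Hoxb4 interval. In colon SEMFs Hoxb4 held 10 of 16 Hoxb UMIs. Colon trophocytes (16.6 CPM, 13.6 to 20.1), LECs (13.1, 7.18 to 22.0) and BECs (26.0, 10.4 to 53.5) did not differ beyond their intervals. Small intestinal Hoxb4 stood at 49.7 CPM in BECs, 48.5 in SMCs, 36.8 in CD81- FBs, 31.0 in trophocytes, 24.2 in SEMFs and 19.5 in LECs.

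Hoxb5 and Hoxb6, in the middle of the cluster, were nearly absent from colon CD81- FBs. Hoxb5 had 2 UMIs there against 270 in the small intestine (log2 ratio -7.37, -10.4 to -5.50), and Hoxb6 had 6 against 345 (log2 ratio -6.14). In colon trophocytes Hoxb5 stood at 7.38 CPM (5.42 to 9.82) and Hoxb6 at 13.0 (10.4 to 16.2). Colon LECs held 7 UMIs of Hoxb5 and 16 of Hoxb6, BECs 1 and 6, and SEMFs 1 of each. The trophocyte levels were 0.62 and 0.41 below the small intestine on the log2 scale, and the interval of Hoxb6 (-0.79 to -0.05) was just clear of 0. It spanned 0 without the 6% of cells with the most UMIs (-0.28, -0.69 to 0.11) and with only Y-linked colon cells (-0.05, -0.61 to 0.46). Small intestinal SEMFs stood apart for Hoxb5, with 3.37 CPM (2.11 to 5.11) against 8.91 in SMCs, 11.3 in trophocytes, 13.4 in CD81- FBs and 18.7 in both endothelial labels. Hoxb6 was highest in small intestinal LECs, 24.9 CPM (22.1 to 28.0), overlapping BECs (17.3, 12.3 to 23.8), and its other 5 labels there lay between 12.1 and 17.4.

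Hoxb7 and Hoxb8 were genes of the endothelium more than of fibroblasts. Hoxb7 reached 44.5 CPM (23.0 to 77.7) in colon BECs and 26.3 (28 UMIs) in LECs, against 6.60 (4.75 to 8.92) in trophocytes and 0.364 (0.167 to 0.691) in CD81- FBs. In the small intestine LECs (37.5 CPM, 34.0 to 41.2) and BECs (29.6, 22.9 to 37.8) were again highest, and their intervals overlapped. SEMFs followed at 20.1 CPM (16.8 to 23.8), overlapping BECs and above the 13.1 (11.6 to 14.8) of CD81- FBs, and Hoxb7 was the one member for which small intestinal SEMFs exceeded trophocytes by more than counting error (log2 ratio of trophocytes to SEMFs -0.96, -1.31 to -0.61). Trophocytes (10.3 CPM) and SMCs (10.7) were lowest there. Colon SEMFs held no Hoxb7 UMI. Hoxb8 showed the same endothelial bias at a lower level: 13.2 CPM (11.2 to 15.5) in LECs and 12.3 (8.12 to 17.9) in BECs of the small intestine, with 1.99 to 2.85 in the other 4 labels. In the colon it had 7 UMIs in LECs, 3 in BECs and 5 in trophocytes, and none in CD81- FBs, SEMFs or SMCs.

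Hoxb9, the hindmost member measured, exceeded 3 UMIs, among the 6 labels, in BECs only. Small intestinal BECs held 61 UMIs (27.8 CPM, 21.3 to 35.7) and colon BECs 8 (29.7 CPM, 12.8 to 58.5), a log2 ratio of 0.09 (-1.18 to 1.16). Of the 8 colon UMIs, 7 came from CapECs and 1 from ArtECs. No trophocyte of either library had a Hoxb9 UMI (colon interval 0 to 0.579 CPM), and LECs had 0 and 2. For BECs the colon to small intestine log2 ratios of Hoxb6, Hoxb7, Hoxb8 and Hoxb9 were 0.36, 0.59, -0.15 and 0.09, with intervals spanning 0, and those of Hoxb2 and Hoxb3 -1.80 and -2.02. The latter rest on 3 and 2 UMIs, and the intervals of Hoxb2 (-4.11 to -0.21) and Hoxb7 (-0.44 to 1.49) overlap.

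**Figure D2:**
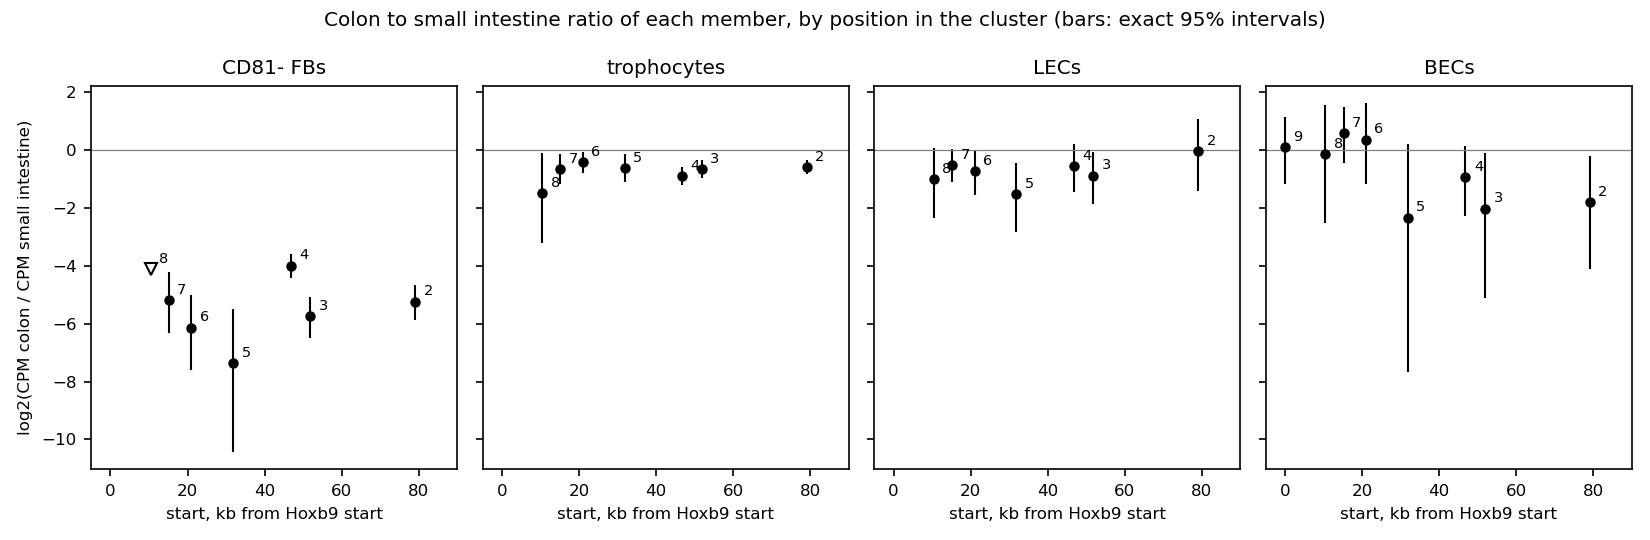
log2 ratio of CPM in the colon to the small intestine for each member, with exact 95% intervals. Each is plotted at its start in kb from the start of Hoxb9 (the number is the member's). The open triangle is a ratio with 0 colon UMIs set to 3, and members at or under 3 UMIs in both tissues are left out. Trophocytes lie between -1.48 and -0.41 for each member plotted, CD81- FBs at -4.00 or below.

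These counts can be read against all genes of the same label. Of genes with at least 100 UMIs over both libraries, 10.4% were more than 2-fold lower in colon CD81- FBs, where 6 of the 8 members met that minimum and 6 were lower. In trophocytes the share was 8.24%, and 0 of the 6 members that met the minimum were past 2-fold. In SEMFs it was 15.1% with 4 of 4 members, in SMCs 17.3% with 3 of 3, and in the pooled fibroblasts 9.47% with 6 of 6. In these labels members met the minimum mainly through the small intestine, so the counts are a description only. In LECs it was 15.4% with 2 of 6 members (Hoxb5 and Hoxb8), and in BECs 19.6% with 0 of 1. There too members met the minimum mainly through the small intestine, and the interval of Hoxb8 in LECs spanned 0 (-1.01, -2.35 to 0.07). The median log2 ratio of all these genes lay between -0.33 and -0.11 in the 6 labels.

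The make-up of the signal was alike between tissues in trophocytes and in LECs, and differed between these labels. UMIs of a 3' kit count molecules and do not scale with transcript length, but capture can differ between genes, so shares are compared between labels and not read as protein amounts. Hoxb2 to Hoxb4 held 69.1% (65.1 to 72.8) of the Hoxb UMIs in colon trophocytes, 70.9% (68.9 to 72.8) in small intestinal trophocytes and 71.0% (69.4 to 72.5) in small intestinal CD81- FBs. In colon CD81- FBs they held 83.9% (99 of 118 UMIs), and this interval did not overlap the small intestinal one. In LECs they held 36.3% (26.4 to 47.0) in the colon and 33.2% (30.9 to 35.6) in the small intestine. Hoxb7 to Hoxb9 showed the reverse, with 8.22% (6.10 to 10.8) in colon trophocytes and 38.5% (28.4 to 49.2) in colon LECs. Colon and small intestinal BECs differed from each other: Hoxb2 to Hoxb4 held 28.6% (15.7 to 44.6) and 52.8% (48.3 to 57.3).

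**Figure D3:**
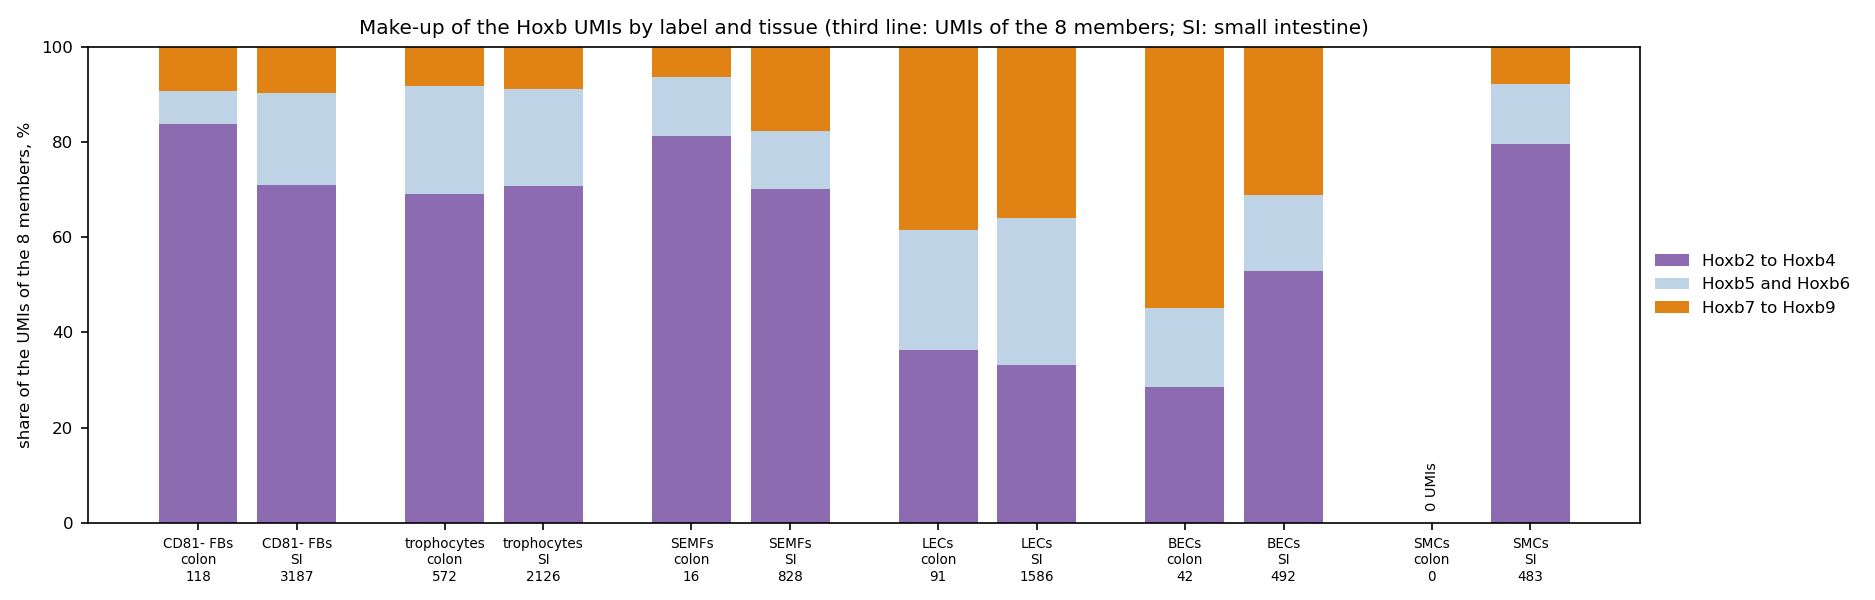
Share of the UMIs of the 8 members held by Hoxb2 to Hoxb4, Hoxb5 and Hoxb6, and Hoxb7 to Hoxb9 (stacked to 100%), by label and tissue, with the number of UMIs under each bar. Trophocytes of both tissues have nearly the same make-up, as do LECs of both tissues; colon SMCs held 0 UMIs.

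Across the 12 profiles (6 labels in 2 tissues) the closest pairs of members were Hoxb3 with Hoxb4 and Hoxb6 with Hoxb7. On log2(CPM + 1), they correlated at r = 0.960 and 0.955. Hoxb5 was most like Hoxb3 (0.942), which is not its neighbour, and Hoxb9 was least like Hoxb3 (0.140). Among 13974 genes, the 5 most like the summed level were Lysmd3 and Hip1 (both 0.943), Ifih1 and Rrm1 (both 0.932) and Limch1 (0.928). A correlation does not take the size of a change into account. In colon against small intestinal CD81- FBs, Lysmd3 stood at 39.3 and 62.8 CPM, Ifih1 at 31.8 and 69.7, and Rrm1 at 11.9 and 18.4. These differences were far smaller than that of Hoxb, while Limch1 stood at 4.41 and 181. Hip1, a clathrin-associated protein, shared the drop in the colon: 3.72 CPM in CD81- FBs, 29.5 in trophocytes, 147 in LECs and 0 in SMCs, against 59.6, 42.1, 200 and 88.7 in the small intestine. The 12 profiles share 2 libraries and these values are descriptions.

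Of the Hoxa and Hoxd genes listed for both tissues, Hoxa5 was most like the summed Hoxb level (r = 0.836), but it stood at 5.50 CPM in colon trophocytes and 6.07 in colon CD81- FBs. Hoxa9 ran the other way (r = -0.71), with 27.1 CPM in colon CD81- FBs, 13.3 in colon trophocytes and 0.695 in small intestinal CD81- FBs. Hoxd10 likewise (r = -0.59) stood at 8.62 to 9.89 CPM in the 3 colon fibroblast labels and at 0 UMIs in the small intestinal ones. Hoxb1 and Hoxb13, the outer genes of the Hoxb cluster, were listed for neither tissue.

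In trophocytes the antisense transcripts of the cluster were higher in the colon, unlike the coding genes. Hoxb3os, which overlaps exons of Hoxb2 and Hoxb3, stood at 11.5 CPM in colon trophocytes, a log2 ratio to the small intestine of 0.70 (0.25 to 1.14), while Hoxb3 itself was at -0.65. Hoxb5os, which overlaps Hoxb5, stood at 5.03 CPM in colon trophocytes, with 32 UMIs against 19 and a ratio of 1.99 (1.13 to 2.89). In CD81- FBs both were lower in the colon, at -3.90 (-4.81 to -3.12) and -2.82 (-3.80 to -1.96). Strand use in the authors' counting was not given in the sources used here, so reads of a gene and its antisense partner may not be fully separated.

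Genes that act with or upstream of Hox proteins were compared from named lists. Of 9 TALE cofactors, 8 met the minimum in trophocytes and 3 were more than 2-fold lower in the colon, where 8.24% of all genes were, among them Pbx3 at -1.94 (-2.05 to -1.84) and Meis1 at -1.39 (-1.48 to -1.30). Meis1 was also lower in CD81- FBs (-1.88, -1.94 to -1.81) and SEMFs (-1.99, -2.17 to -1.81), where the Hoxb genes were nearly gone. Of 18 retinoic acid genes, 12 met the minimum in trophocytes, with 3 more than 2-fold lower and 2 higher in the colon, where 4.23% of all genes were more than 2-fold higher. In CD81- FBs 6 of 12 were lower (10.4% of all genes lower) and 2 higher (6.46% of all genes higher). In SEMFs 5 of 11 were lower (15.1% of all genes lower) and 2 higher (5.36% of all genes higher). Aldh1a3, a retinoic acid synthesising enzyme, differed in direction between labels: 1.22 (0.97 to 1.47) in trophocytes, -1.25 (-1.31 to -1.18) in CD81- FBs and -5.42 (-6.27 to -4.68) in SEMFs. The related Aldh1a1 and Aldh1a2 of the same list went the other way in trophocytes. Trophocytes with and without a Hoxb UMI, compared below at equal depth, held Aldh1a1 at 73.1 and 57.1 CPM in the colon. In the small intestine they held 263 and 243 CPM. Aldh1a2 stood at 5.35 (3 UMIs) and 14.3 CPM in the colon, against 27.9 and 34.6 in the small intestine. Rarb, a retinoic acid receptor, was lower in the colon in all 3 fibroblast labels (-1.78, -1.68 and -2.43). Of 13 Polycomb and trithorax genes, 12 met the minimum in trophocytes and 1 was past 2-fold, beside the 4.23% of all genes that were higher: Ezh2, the Polycomb methyltransferase, at 1.07 (0.85 to 1.30), against 0.07 (-0.08 to 0.22) in CD81- FBs.

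Among single colon trophocytes, 365 of 875, or 41.7% (38.4 to 45.1), had at least 1 Hoxb UMI. The share was 2.92% in CD81- FBs, 0.995% in SEMFs and 0 of 125 in SMCs (interval 0% to 2.91%). Median depths were 7186 UMIs for trophocytes and 6697, 6345 and 5526 for the others. If every colon trophocyte held the mean level, 46.3% would be positive at their depths, and 62.3% of small intestinal trophocytes were positive where 65.0% would be. Of the 365 positive cells, 233 had 1 UMI, 83 had 2 and 49 had 3 or more, the most being 7. UMIs of 2 or more members occurred in 105 cells.

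After each cell was thinned to 3000 UMIs, so that depth could not set who was positive, 22.9% (20.0 to 25.9) of 817 colon trophocytes remained positive and 58 shallower cells were left out. The small intestinal share was 33.4% of 1864. Colon LECs stood at 22.5% (16.9 to 28.9), CD81- FBs at 1.39% (1.02 to 1.83) and SEMFs at 0.566% (0.208 to 1.23). Pairs of members fell in the same thinned colon trophocyte 27 times, where the product of their shares gives 21.7. Small intestinal trophocytes did so 154 times against 125, ratios of 1.25 and 1.24.

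**Figure D4:**
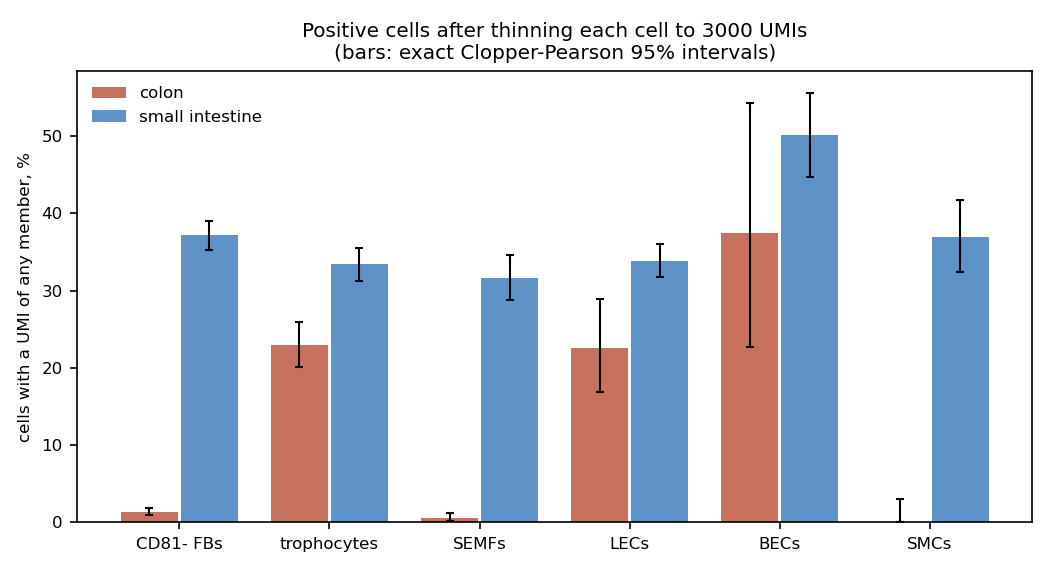
Share of cells with a UMI of any member after thinning each cell to 3000 UMIs, by label, in the colon (red) and small intestine (blue), with exact Clopper-Pearson 95% intervals. Colon trophocytes (22.9%), LECs (22.5%) and BECs (37.5%) stand far above colon CD81- FBs (1.39%), and SMCs are at 0.

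The few positive cells of the low colon labels were examined for other labels' transcripts. The 48 positive CD81- FBs held trophocyte markers at 1451 CPM (1261 to 1662) against 1215 (1193 to 1236) in negative ones, and unthinned trophocytes as a whole held 3244 CPM. The 6 positive SEMFs held blood endothelial markers at 667 CPM (344 to 1165) against 16.1, and had a median of 10544 UMIs before thinning against 6461. Their part in the residual signal was not tested. The intervals of the level in colon trophocytes overlapped between cells with Xist and no Y-linked UMIs (89.3 CPM, 79.1 to 100) and cells with the reverse (94.6, 81.9 to 109). In the small intestine Xist was absent from the gene list, so the same could not be asked there. Any difference in sex make-up between the libraries therefore cannot be told apart from tissue.

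In small intestinal SMCs, where Adamdec1 was abundant, the Hoxb interval of cells without it held the level of the label: the 16 cells with no Adamdec1 UMI held 209 CPM (115 to 351) against 172 in the whole label. All 125 colon SMCs had a Myh11 or Actg2 UMI, both genes of smooth muscle contraction, and their 38 cells without Adamdec1 also held no Hoxb UMI. One small intestinal LEC held 32 Hoxb UMIs, 11 of Hoxb5 and 10 of Hoxb8, among 17795 in all. Without it LECs stood at 139 CPM (132 to 146).

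Few genes differed by more than 2-fold between colon trophocytes with and without a Hoxb UMI. The 187 positive and 630 negative thinned cells were compared over 6033 genes with at least 50 UMIs, members left out. Negative means no Hoxb UMI after thinning. Some negative cells held one before it, since 365 colon trophocytes were positive unthinned. The split is thus by detection and can understate differences. Their median depths before thinning were 6935 and 7617 UMIs. Of these genes, 30 (0.497%) were more than 2-fold higher in positive cells and 75 (1.24%) more than 2-fold lower. The 10 genes highest in positive cells were Fibin, F2r, Adcyap1r1, Ptn, Prkar2b, Csgalnact1, Cacna1d, Map3k4, Kcnn3 and Adgrl1. The 10 lowest were Npy1r, Taf4b, Has1, Ube2j1, Ptgs1, March3, Rarg, Vcam1, Arid5a and Sox4. Picked as extremes of 6033 genes, their intervals being off 0 carries no weight.

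Fibin, a secreted protein, stood at 132 against 50.8 CPM, with 17.6% against 9.52% of cells positive, and the neuropeptide Y receptor gene Npy1r at 17.8 against 82.0 CPM. Has1, a hyaluronan synthase, stood at 226 against 475 CPM. The list itself was unstable: a second thinning chose 3 of the 10 higher genes again (Fibin, F2r and Ptn) and 2 of the 10 lower (Npy1r and Sox4). Unthinned cells chose 3 (F2r, Adcyap1r1 and Ptn) and 3 (Npy1r, Taf4b and Vcam1). In the same split of small intestinal trophocytes, 5 of the 10 higher and 8 of the 10 lower genes lay on the same side. There the interval was off 0 for Ptn, at 0.48 (0.13 to 0.83), and for Has1, at -0.41 (-0.58 to -0.25), as well as narrowly for March3.

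Positive colon trophocytes held the genes that mark small intestinal trophocytes at nearly the level of negative ones. The 54 genes more than 8-fold higher in small intestinal than colon trophocytes summed to 435 CPM in positive and 385 in negative colon cells (log2 ratio 0.18, -0.04 to 0.39). They summed to 5164 in small intestinal trophocytes, but that gap was set by choosing the genes on it in these same data. The 35 genes more than 8-fold higher in colon trophocytes gave -0.03 (-0.04 to -0.02) between positive and negative cells. Dkk2, a Wnt regulator at 248 CPM in small intestinal trophocytes, had 4 UMIs in all colon trophocytes. For the other clusters the intervals spanned 0: the Hoxa genes summed to a ratio of -0.31 (-0.75 to 0.11) and the Hoxd genes to 0.23 (-0.28 to 0.72).

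All 12 immediate early and stress genes, among them Fos, Jun and Egr1, were lower in positive cells, none past 2-fold, with a summed level of 19686 against 24264 CPM (-0.30, -0.33 to -0.27) and a median of -0.34 beside 0.03 over all genes. The small intestinal split gave 0.00 (-0.01 to 0.02). These genes respond to tissue dissociation, and their part in the colon split was not tested. The median over the 7 TALE cofactors tested was 0.17, with Meis1 at 210 against 165 CPM and Pknox1 at 16.0 against 36.0. Trophocyte markers were slightly lower in positive cells (-0.11, -0.19 to -0.03), and so were the adventitial genes (-0.13, -0.19 to -0.07). The lists are not independent, since both hold Pi16, Dpp4, Ly6a and Cd34. Col15a1 of the adventitial list went the other way, at 114 against 63.0 CPM (0.86, 0.40 to 1.31). Markers of CD81- FBs summed to -0.32 (-0.59 to -0.05) in the colon split and to 0.24 (0.13 to 0.36) in the small intestinal one. Of these only Cxcl13 had an interval off 0. It stood at -1.76 (-3.01 to -0.72, 8 against 91 UMIs) in the colon and 0.79 (0.60 to 0.99) in the small intestine. Pericyte markers summed to 99.8 against 55.0 CPM, mostly Rgs5 with 36 and 59 UMIs. Mitochondrially encoded genes made up 2.15% and 1.93% of UMIs.

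**Figure D5:**
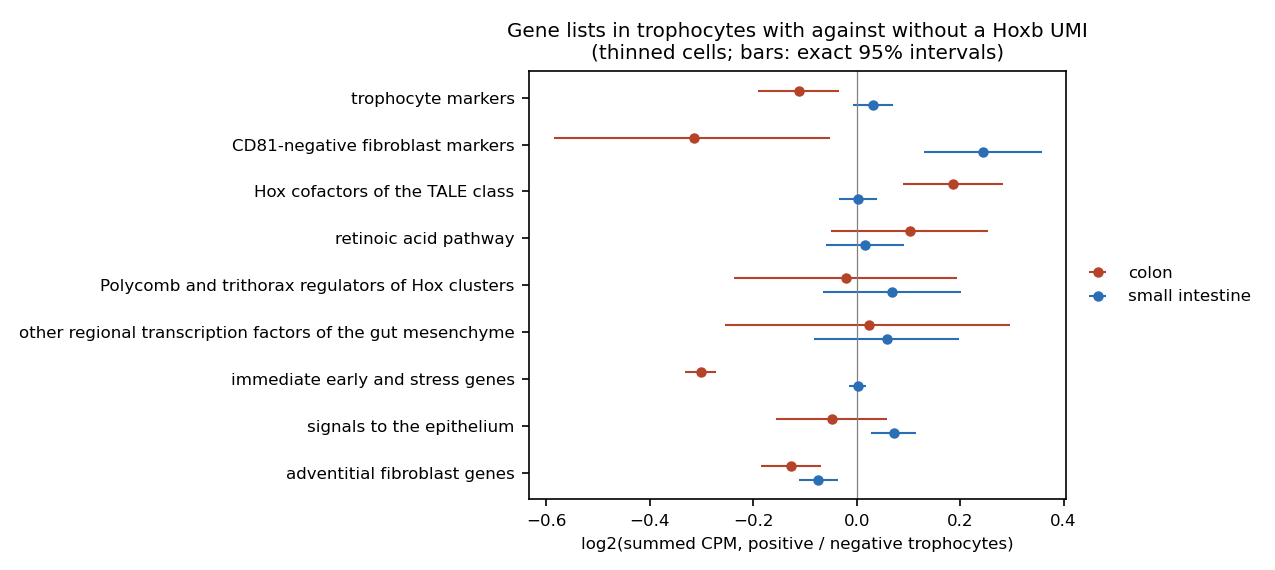
log2 ratio of the summed CPM of each gene list between trophocytes with and without a Hoxb UMI, in thinned colon (red) and small intestinal (blue) cells, with exact 95% intervals, for lists with 3 or more genes tested in both. No list departs from 0 by more than 0.32, and the immediate early and stress genes are lower in positive cells of the colon (-0.30) and at 0.00 in the small intestine.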

How the data were processed

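The authors deposited, for each library, raw UMI counts for each gene in each cell, a table of natural log normalized values and a table of cell labels. Per the submitters' processing notes the tools were Cell Ranger 7.1.0 and Seurat 4 and the build mm10. The filters on cells and genes, and the labelling method, were not given in the sources used here. Every deposited natural log value equalled the natural log of 1 plus 10000 times the cell's share of UMIs, within 1e-09. No column of another sample was met (0).

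CPM were computed from raw counts summed per label (Python 3.11.15, numpy 2.4.6, scipy 1.17.1, pandas 2.3.3), with exact Poisson, Clopper-Pearson or conditional binomial 95% intervals, and a count of 0 was set to 3 for a bound. In a ratio such a bound is not a 95% limit, since it leaves out the counting error of the other side. UMIs count molecules, but intervals cover counting error only. No test was run, since cells are not replicates. No doublet caller was run. Totals per library and label limit the precision: 269665 UMIs in colon BECs give wide intervals, 24707386 in colon CD81- FBs narrow ones. Vessel labels of the colon were joined as BECs, and 2 spellings of the SEMF label were joined. The interval script was tested on simulated data.

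Named genes of the split were the 10 highest and 10 lowest ratios after adding 10 CPM, among genes with 50 thinned UMIs detected in 10% of cells of the higher side, leaving out members, Y-linked genes, Xist and Tsix, and the haemoglobin, immunoglobulin, ribosomal protein and mitochondrially encoded genes. Likeness was Pearson's r over genes with at least 100 UMIs. The members, lists and rules were chosen with earlier results of these data known. The alternatives were other totals, per-cell means, natural log means, leaving out cells of highest UMI total, Xist and Y classes, other thinnings, and 2 chosen after seeing the data: leaving out 1 LEC, and SMCs without Adamdec1.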

Additional observations from a re-analysis of the deposited data

Results flagged for a closer look

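Between trophocytes and CD81- FBs, the order of the summed Hoxb level was opposite in the tissues: the log2 ratio of trophocytes to CD81- FBs was 4.23 in the colon and -0.16 in the small intestine. The same opposite sign, with intervals off 0 on both sides, was seen for Hoxb3 (4.62 and -0.46), Hoxb4 (2.85 and -0.25) and Hoxb7 (4.18 and -0.35). Against SEMFs an opposite sign was seen for Hoxb7, at 4.03 in the colon with the 0 SEMF UMIs set to 3, and -0.96 in the small intestine. With 1 library per tissue the difference between tissues was not tested.

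Outside the 6 labels compared, the 8 colon pericytes held 4 Hoxb UMIs (115 CPM, 31.4 to 295), and the 24 proliferating cells of the small intestine held 39 (178 CPM, 126 to 243). In the latter 18.2 CPM or more was contributed by each of Hoxb3 to Hoxb7.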

How the results depend on the processing

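No paired analysis was possible because each tissue has 1 library. In each fibroblast label, the direction of the colon to small intestine ratio of Hoxb2 to Hoxb8 was kept under all alternatives run (21 of 21 ratios, 18 of 18 for per-cell means; Hoxb9 has none), as was that of the summed level in all labels. Intervals did not all stay off 0: in trophocytes that of Hoxb7 spanned 0 without the cells of highest total (-0.38, -0.94 to 0.16), and the summed BEC ratio was -0.21 in Y-linked and -0.60 in Xist colon cells, both spanning 0. With means of the deposited natural log values, another scale, ratios were nearer 0: the summed ratio in trophocytes became -0.46 and in pooled fibroblasts -1.06, the latter also moving to -2.85 with only Y-linked colon cells. The share of positive colon trophocytes was 22.9% thinned, 15.1% at 2 or more UMIs and 45.3% in Xist cells. Leaving out the LEC with the most Hoxb UMIs gave -0.70 in LECs, and SMCs without Adamdec1 gave -5.75 with the 0 colon UMIs set to 3.

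The split of colon trophocytes was the least stable result. The main split tested 6033 genes, with 30 higher and 75 lower. Unthinned cells had 35 genes more than 2-fold higher and 22 lower of 9176 tested, so the larger side changed. Positive at 2 or more UMIs gave 192 higher and 498 lower of 5280 tested, from 35 positive cells. Y-linked cells alone gave 18 higher and 52 lower of 2459 tested, and the small intestinal split 5 higher and 30 lower of 8960. Of the named genes, F2r (-0.58), Ptn (-0.063) and Kcnn3 (-0.24) reversed at 2 or more UMIs, Map3k4 (-0.18) with a second seed, Ube2j1 (0.022) in unthinned cells and Rarg (0.19) at 2000 UMIs. In the small intestine F2r (-0.12), Adcyap1r1 (-0.031), Cacna1d (-0.021), Map3k4 (-0.15), Kcnn3 (-0.13), Vcam1 (0.28) and Arid5a (0.010) reversed. The median of the immediate early and stress genes stayed between -0.38 and -0.19 in the colon settings; other lists were less stable, with 3 of 9 medians keeping their sign at 2 or more UMIs (trophocyte markers 0.20, TALE cofactors -0.02), 7 of 9 in unthinned cells, 6 of 8 in Xist cells and 4 of 9 in the small intestine. Colon BECs (53 cells) limit every value given for them.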
